A study of Mus musculus with 8 samples.

Results

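The genes of the potassium channel family were followed in mouse calvarial osteoblasts, the bone-forming cells of the skullcap, after treatment with parathyroid hormone (PTH) or vehicle. Members were all rows of the gene count table whose symbol begins with Kcn, apart from the long non-coding RNA Kcnq1ot1, which left 98 of the 47706 genes listed. RNA was sequenced from 4 PTH-treated and 4 vehicle-treated samples of primary cultures from newborn mice, differentiated for 7 days and treated for 24 hours. The PTH group received the hormone's active amino-terminal fragment, the vehicle group none, and no transgene or knockout is named for either. All 8 titles carry the prefix Con, which the labels do not explain, and the labels do not say whether samples of a treatment came from separate litters or cultures, so p-values measure the spread between these samples, which may be technical. The labels name adipogenic differentiation where the study's methods describe osteogenic medium. Expressed as CPM (counts scaled to normalized library size), the median of 10 osteoblast markers was 208 to 353 in the 8 samples, and that of 7 adipocyte markers was 2.71 to 4.67. Libraries held 33605610 to 56090654 counts.

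Potassium channels let potassium leave or enter the cell and thereby set the membrane potential. Voltage-gated (Kv) channels open on depolarization and are tuned by auxiliary subunits, the tandem-pore (Kcnk) channels carry background current, the inward rectifiers (Kcnj) hold the resting potential, and the calcium-activated channels link the potential to intracellular calcium. In osteoblasts PTH acts through a receptor that raises cyclic AMP and calcium, and potassium currents of several of these classes are known in bone cells.

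Of the 98 members, 11 had no count in any sample, 87 had at least 1 count in some sample, and 49 passed the filter on low counts and were tested. Expression of 14 was higher and of 8 was lower with PTH at an adjusted p under 0.05 (edgeR's quasi-likelihood test, Benjamini-Hochberg adjustment over all 16736 genes tested). These 22 genes were 44.9% of the tested members, against 45.8% of all tested genes, so the share of potassium channel genes that changed was close to that among genes at large. The higher members made up 28.6% and the lower members 16.3%, where the shares among all tested genes were 23.3% and 22.5%. Members that changed at least 2-fold were 9 higher and 3 lower, or 18.4% and 6.12% of those tested, where 7.36% and 3.88% of all genes did so. Of the tested members, 4 (Kcnk10, Kcnk12, Kcne2 and Kcnc1) passed the filter only through their PTH-treated samples and so had to differ. The median log2 fold change was 0.06 over the tested members and 0.00 over all tested genes. In 20 tested members (40.8%, against 43.0% of all tested genes) the samples of the treatments did not overlap, and for these the exact permutation test gave p = 0.0286, the smallest that 4 against 4 samples allow.

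**Figure D1:**
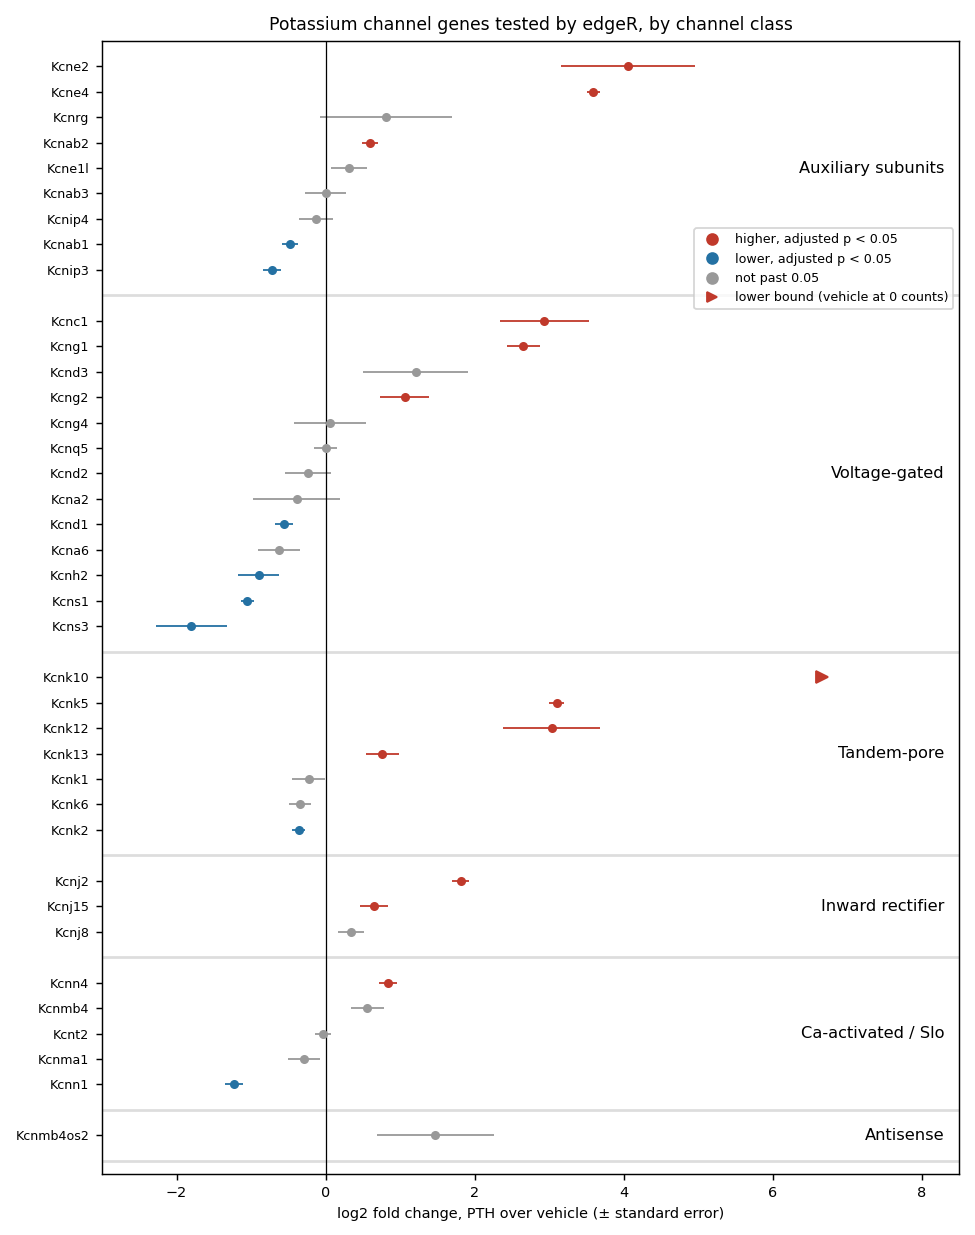
Log2 fold change (PTH over vehicle, with the standard error as a bar) of the tested potassium channel genes named in the text, grouped by channel class, with genes past an adjusted p of 0.05 in colour and Kcnk10 as a triangle at its lower bound. Increases reached further from 0 than decreases, with Kcne4, Kcnk5 and Kcng1 among those above 2.6 and the largest decrease at -1.80 in Kcns3.

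The sequence upstream of members that carry the main changes is given here: Kcne4, Kcnk5 and Kcnj2, the best-counted large rises of the auxiliary, tandem-pore and inward rectifier classes, Kcnk10, which had no count with vehicle, and Kcnn1, the only fall among the calcium-activated channels. Sequences were taken from the RefSeq promoters of GRCm38.p6 and end at the base before the first GENCODE exon, apart from the 30 bases around the half-site of Kcne4, which lie within it. Capitals mark TGACG or its reverse complement CGTCA, the half-site to which the cyclic AMP-responsive factor CREB binds.
Kcne4, chr1:78816661-78816757, plus strand: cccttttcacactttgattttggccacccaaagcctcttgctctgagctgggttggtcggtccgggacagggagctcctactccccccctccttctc
Kcne4, 30 bases around the half-site, chr1:78816849-78816878, plus strand: tcccggaacacgTGACGatgcatttcttga
Kcnk5, chr14:20181810-20182032, minus strand: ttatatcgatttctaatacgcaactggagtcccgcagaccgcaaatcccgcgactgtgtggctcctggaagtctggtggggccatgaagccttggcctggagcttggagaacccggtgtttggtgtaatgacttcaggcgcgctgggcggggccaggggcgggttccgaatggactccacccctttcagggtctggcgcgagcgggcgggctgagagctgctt
Kcnk10, chr12:98578311-98578463, minus strand: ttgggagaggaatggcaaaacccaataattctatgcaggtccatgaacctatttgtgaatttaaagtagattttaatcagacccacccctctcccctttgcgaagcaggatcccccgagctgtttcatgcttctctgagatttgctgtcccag
Kcnj2, chr11:111065914-111066163, plus strand: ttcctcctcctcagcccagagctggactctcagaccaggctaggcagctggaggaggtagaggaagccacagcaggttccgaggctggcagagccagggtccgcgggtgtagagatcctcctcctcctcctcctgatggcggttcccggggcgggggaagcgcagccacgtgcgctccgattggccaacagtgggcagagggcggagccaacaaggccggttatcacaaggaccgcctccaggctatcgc
Kcnn1, chr8:70863259-70863508, minus strand: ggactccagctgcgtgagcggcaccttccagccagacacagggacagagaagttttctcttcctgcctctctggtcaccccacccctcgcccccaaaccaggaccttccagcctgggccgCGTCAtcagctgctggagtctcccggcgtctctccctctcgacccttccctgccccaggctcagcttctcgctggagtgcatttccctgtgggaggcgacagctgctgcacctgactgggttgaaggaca
Searched on both strands over the 250 bases before the RefSeq start, the half-site was present in 15 of the 71 members matched to the table (21.1%), against 19.8% of 27025 genes. It was found in 4 of the 11 matched members that rose (Kcne4, Kcne2, Kcnab2 and Kcnc1), in 1 of the 7 that fell (Kcnn1) and in 4 of the 19 that were tested and not called. The full palindrome TGACGTCA was in 0 of the 71 members and in 1.77% of all genes. In Kcne4 the half-site began 50 bases before the RefSeq start, inside the first exon of the GENCODE annotation, and in Kcnn1 it began 130 bases before the start. A match in these windows is a description of the letters and not of binding.

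The auxiliary subunits of the Kv channels held the largest change in amount. Of 13 members, 9 were tested, of which 3 rose (33.3%, against 23.3% of all tested genes) and 2 fell (22.2%, against 22.5%). Kcne4, a single-pass membrane protein that inhibits the current of Kv channels with which it assembles, lies on chromosome 1 (78816758 to 78820028, GRCm38). Its level was 52.6, 45.9, 46.1 and 42.6 CPM in the vehicle-treated samples and 586, 519, 564 and 584 CPM in the PTH-treated samples. Every PTH-treated sample lay far above every vehicle-treated sample. The means were 46.8 ± 4.17 and 563 ± 31.1 CPM (SD, n = 4 each), a log2 fold change of 3.59 (standard error, SE, 0.0856; adjusted p = 1.72e-11 by edgeR), or 12-fold. Pore subunits known to pair with KCNE4 were scarce in the same libraries: Kcnq1 had at most 4 counts in any sample and Kcna3 at most 9. Kcne2, another subunit of the same family, had counts of 0, 6, 0 and 0 with vehicle and 17, 13, 31 and 35 with PTH. It passed the filter only through its PTH-treated samples and so had to differ, which limits what its p-value can show. All PTH-treated samples were higher, at 0.591 ± 0.266 CPM, and the fitted log2 fold change of 4.06 with an SE of 0.900 (adjusted p = 0.00289 by edgeR) was set against 1 vehicle-treated sample with counts, Vehicle 2. Without it all vehicle-treated samples were at 0 and the fitted value was 7.70, which then depends on the prior count of the fit.

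The beta subunits Kcnab1 and Kcnab2, cytoplasmic proteins that attach to Kv1 channels, moved in opposite directions. Kcnab2 had 14.7, 12.9, 13.5 and 17.3 CPM with vehicle against 22.3, 21.5, 19.6 and 24.5 CPM with PTH, with no overlap, and rose by 0.59 on the log2 scale (SE 0.107, adjusted p = 7.69e-04 by edgeR). Kcnab1 had 17.2, 18.5, 18.9 and 22.2 CPM with vehicle against 12.8, 12.2, 15.1 and 14.7 CPM with PTH, all lower, and fell by 0.48 (SE 0.104, adjusted p = 0.00242). The third beta subunit, Kcnab3, had means of 1.77 CPM in both groups. Kcnip3, a calcium-binding protein that joins Kv4 channels and also represses transcription under the name DREAM, was at 6.96, 7.28, 7.18 and 6.65 CPM with vehicle against 4.27, 4.0, 3.97 and 4.80 CPM with PTH. Its samples did not overlap, and it fell by 0.72 on the log2 scale (SE 0.122, adjusted p = 4.75e-04 by edgeR). Kcnip4, Kcne1l and Kcnrg were tested and not called, with log2 fold changes of -0.13, 0.31 and 0.81.

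The voltage-gated pore-forming and silent subunits were the largest class, with 40 members, of which 20 were tested. Of these, 4 rose (20.0%, against 23.3% of all tested genes) and 4 fell (20.0%, against 22.5%). The falls included the most highly expressed member of the class per length of transcript, Kcns1. Kcns1 makes no channel of its own and joins pore-forming subunits of other Kv genes, whose current it modifies. Kcns1 was at 37.2, 39.8, 34.9 and 33.3 CPM in the vehicle-treated samples and at 19.3, 16.0, 17.3 and 17.7 CPM in the PTH-treated samples. No PTH-treated sample came near the vehicle range, and the level fell by 1.05 on the log2 scale (SE 0.0839, adjusted p = 8.58e-07 by edgeR). Kcns3, a silent subunit of the same kind at a far lower level, had 0.870, 0.666, 1.0 and 0.605 CPM with vehicle against 0.449, 0.120, 0.104 and 0.190 CPM with PTH, without overlap, and fell by 1.80 (SE 0.482, adjusted p = 0.00899). Without the sample PTH 1, the highest of its group, the log2 fold change was -2.47.

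The silent subunits Kcng1 and Kcng2, which likewise form no channel alone, rose, and Kcng4 of the same group was not called (log2 fold change 0.06). Kcng1 had 0.937, 0.941, 1.21 and 1.47 CPM with vehicle against 9.25, 5.30, 6.76 and 7.46 CPM with PTH. No PTH-treated sample fell within the vehicle range, and the log2 fold change was 2.65 with an SE of 0.220 (adjusted p = 1.18e-06 by edgeR), or 6.29-fold. Kcng2 rose from 1.43 ± 0.512 CPM to 2.97 ± 1.16 CPM (1.06 on the log2 scale, adjusted p = 0.0193), but 1 PTH-treated sample, at 1.59 CPM, lay within the vehicle range of 1.06 to 2.16 CPM, and the call was lost in 3 of the 8 fits that left out 1 sample each.

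Kcnd1, a pore subunit of the fast-inactivating Kv4 channels, had 15, 13.2, 13.0 and 13.6 CPM with vehicle against 7.82, 10.9, 8.35 and 10.3 CPM with PTH. Its samples did not overlap and it fell by 0.56 on the log2 scale (SE 0.119, adjusted p = 0.00229 by edgeR), as did its calcium-binding partner Kcnip3 given above. The other Kv4 subunits, Kcnd2 and Kcnd3, were low and not called (log2 fold changes -0.24 and 1.21). Kcnh2, the pore subunit of the delayed rectifier hERG, went from 4.39 ± 1.59 CPM to 2.35 ± 0.729 CPM (-0.90 on the log2 scale, adjusted p = 0.0181). The sample Vehicle 4 was the highest at 6.71 CPM, and without it the log2 fold change was -0.62 and the call was lost. Kcnc1, a Kv3 subunit of fast-firing cells, had counts of 0, 3, 6 and 6 with vehicle and 28, 25, 20 and 29 with PTH, all higher. Its log2 fold change of 2.93 with an SE of 0.596 (adjusted p = 0.00167) is on few counts. Kcnc1 also passed the filter only through its PTH-treated samples and so had to differ. Kcnq5, a subunit of slow M-type channels, had nearly the same means with vehicle and PTH, at 5.87 and 5.85 CPM. Of the 8 Kcna genes, only Kcna2 and Kcna6 passed the filter, and neither was called.

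**Figure D2:**
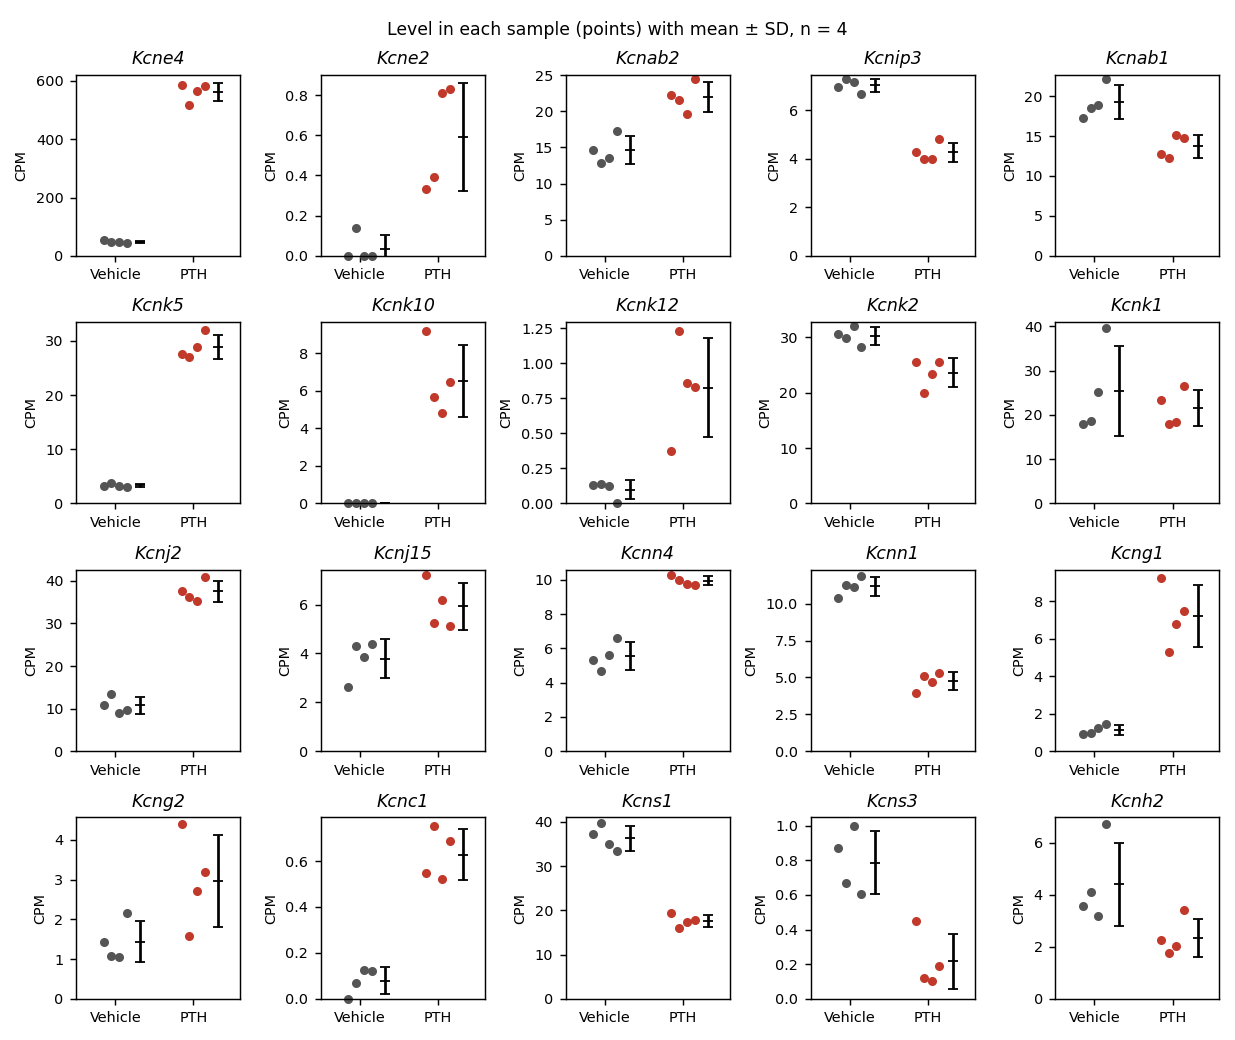
CPM in each of the 4 vehicle-treated and 4 PTH-treated samples for selected potassium channel genes, 1 panel per gene with its own axis from 0 and the mean ± SD beside the points. Kcne4, Kcnk5, Kcnk10, Kcnj2 and Kcng1 have no PTH-treated sample within the vehicle range, and Kcnk1 has 1 vehicle-treated sample, at 39.7 CPM, above all the others.

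Among the tandem-pore channels, 8 of 14 members were tested, of which 4 rose and 1 fell. Among all tested genes, 23.3% were higher and 22.5% lower. The 4 that rose include Kcnk10 and Kcnk12, which passed the filter only through their PTH-treated samples and so had to differ. The number of rises in this class therefore depends in part on the filter. Kcnk5, an acid-sensitive background channel (TASK-2) known from kidney epithelium, lies on chromosome 14 (20140057 to 20181809). It was at 3.26, 3.81, 3.30 and 3.08 CPM with vehicle against 27.6, 27.1, 28.8 and 32 CPM with PTH. Samples within each treatment were close together and the treatments far apart, at a log2 fold change of 3.10 with an SE of 0.101 (adjusted p = 2.54e-10 by edgeR), or 8.59-fold. Its neighbour Kcnk16, 79.6 kb away, had at most 4 counts in any sample.

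Kcnk10, the stretch- and lipid-sensitive channel TREK-2, was the member that went from no count to a clear signal. Its counts were 0 in all 4 vehicle-treated samples and 471, 188, 184 and 271 with PTH, which is 9.19, 5.66, 4.80 and 6.44 CPM. Set against a floor of 3 counts per library, expression was at least 101-fold higher with PTH (adjusted p = 3.53e-07 by edgeR). Kcnk10 passed the filter only through its PTH-treated samples and so had to differ, which limits what its p-value can show. Its relative Kcnk2 (TREK-1), known for mechanical sensing, was among the most highly expressed members and moved the other way. Kcnk2 had 30.6, 29.9, 32.1 and 28.2 CPM with vehicle against 25.5, 20.0, 23.4 and 25.5 CPM with PTH, without overlap, and fell by 0.36 on the log2 scale (SE 0.0884, adjusted p = 0.00577). The third channel of that subgroup, Kcnk4, had at most 17 counts and was not tested.

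Kcnk12 and Kcnk13 are paired relatives, of which THIK-1, encoded by Kcnk13, carries background current. Kcnk12 had counts of 6, 6, 6 and 0 with vehicle and 19, 41, 33 and 35 with PTH, all higher, at a log2 fold change of 3.03 with an SE of 0.652 (adjusted p = 0.00240 by edgeR). It passed the filter only through its PTH-treated samples and so had to differ, which limits what its p-value can show. Kcnk13 rose from 2.27 ± 0.625 CPM to 3.86 ± 0.502 CPM (0.76 on the log2 scale, adjusted p = 0.0129), also without overlap. Kcnk10 and Kcnk13 share chromosome 12 but lie 1386188 bases apart. Kcnk1 and Kcnk6, widely expressed members of the TWIK group with little current at the surface, were high and not called. Kcnk1 had 17.9, 18.7, 25.2 and 39.7 CPM with vehicle against 23.3, 18, 18.4 and 26.6 CPM with PTH, so that Vehicle 4 stood alone, and its log2 fold change was -0.23 with that sample and 0.06 without it. Kcnk6 had 22.3 ± 3.0 and 17.6 ± 3.78 CPM (log2 fold change -0.34, adjusted p = 0.0784).

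Of the 15 inward rectifiers, 3 were tested, 2 rose (66.7%, against 23.3% of all tested genes) and none fell (against 22.5%). A share of so few members carries little weight. Kcnj2 encodes Kir2.1, the classical strong rectifier, whose loss in people causes skeletal anomalies together with periodic paralysis. Its level was 10.8, 13.5, 8.97 and 9.68 CPM with vehicle against 37.7, 36.3, 35.2 and 41.0 CPM with PTH. The treatments were well separated, at a log2 fold change of 1.81 with an SE of 0.118 (adjusted p = 1.37e-07 by edgeR), or 3.51-fold, while Kcnj16, 38.2 kb away on chromosome 11, had at most 8 counts in any sample. Kcnj15, encoding Kir4.2, had 2.63, 4.29, 3.84 and 4.39 CPM with vehicle against 7.2, 5.24, 6.19 and 5.11 CPM with PTH, without overlap (log2 fold change 0.65, SE 0.187, adjusted p = 0.0135). Kcnj8, the pore subunit of vascular ATP-sensitive channels, had 3.33 ± 0.717 and 4.21 ± 0.352 CPM (log2 fold change 0.34, adjusted p = 0.137). Its other subunit gene Abcc9 had means of 6.44 and 6.23 CPM, and Kcnj11 had no count in any sample. The remaining 12 inward rectifiers reached at most 34 counts in any sample.

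In the calcium-activated channels and their Slo relatives, 8 of 12 members were tested. Of these, 1 rose (12.5%, against 23.3% of all tested genes) and 1 fell (12.5%, against 22.5%). Both belong to the small and intermediate conductance channels, which open when calmodulin on the channel binds calcium. Kcnn4, encoding the intermediate conductance channel of blood and secretory cells, had 5.29, 4.68, 5.59 and 6.61 CPM with vehicle against 10.3, 9.99, 9.76 and 9.72 CPM with PTH. All PTH-treated samples were higher, and the log2 fold change was 0.84 with an SE of 0.122 (adjusted p = 1.37e-04 by edgeR). Kcnn1, a small conductance channel, had 10.4, 11.3, 11.1 and 11.9 CPM with vehicle against 3.94, 5.12, 4.70 and 5.30 CPM with PTH. It fell by 1.23 on the log2 scale with no overlap (SE 0.121, adjusted p = 5.30e-06). Per length of transcript, Kcnn1 went from 32.4% to 13.6% of the class and Kcnn4 from 17.9% to 31.5%. The pore gene of the large conductance (BK) channel, Kcnma1, had 8.48 ± 3.12 and 6.94 ± 0.634 CPM and was not called (log2 fold change -0.29, adjusted p = 0.285), with its highest value, 13.0 CPM, again in Vehicle 4. The BK beta subunit Kcnmb4 was not called (0.56 on the log2 scale, adjusted p = 0.0618). The sodium-activated channel Kcnt2 had 9.03 ± 0.790 and 8.80 ± 0.646 CPM.

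Levels of different members were compared as CPM per kb of the longest annotated transcript. With vehicle the order began with Kcne4 at 17.6 ± 1.57, Kcns1 at 13.4 ± 1.04, Kcnk1 at 11.4 ± 4.51, Kcnk2 at 8.46 ± 0.459 and Kcnk6 at 5.46 ± 0.734 CPM per kb. The ranges of Kcns1 and Kcnk1 overlapped, as did those of Kcnk1 and Kcnk2, so their order was not resolved. With PTH, Kcne4 stood at 212 ± 11.7 CPM per kb, and the next were Kcnk1 at 9.65, Kcnk5 at 8.51, Kcnj2 at 6.90, Kcnk2 at 6.60 and Kcns1 at 6.48. By mean level Kcnk5 was at rank 19 with vehicle and rank 3 with PTH, and Kcnj2 at rank 11 and rank 4. Neither rank was fully resolved, since with PTH the range of Kcnk5 overlapped that of Kcnk1 and the range of Kcnj2 those of Kcnk2 and Kcns1, and with vehicle both overlapped the next gene in the order. Kcne4 alone took 18.7% of the summed level of all members with vehicle (16.0% to 21.4% over the samples) and 72.2% with PTH (71.4% to 73.3%). The sum over all members per kb was 92.3 to 100 with vehicle and 271 to 308 with PTH, and without Kcne4 it was 72.8 to 84.3 and 76.0 to 87.9.

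**Figure D3:**
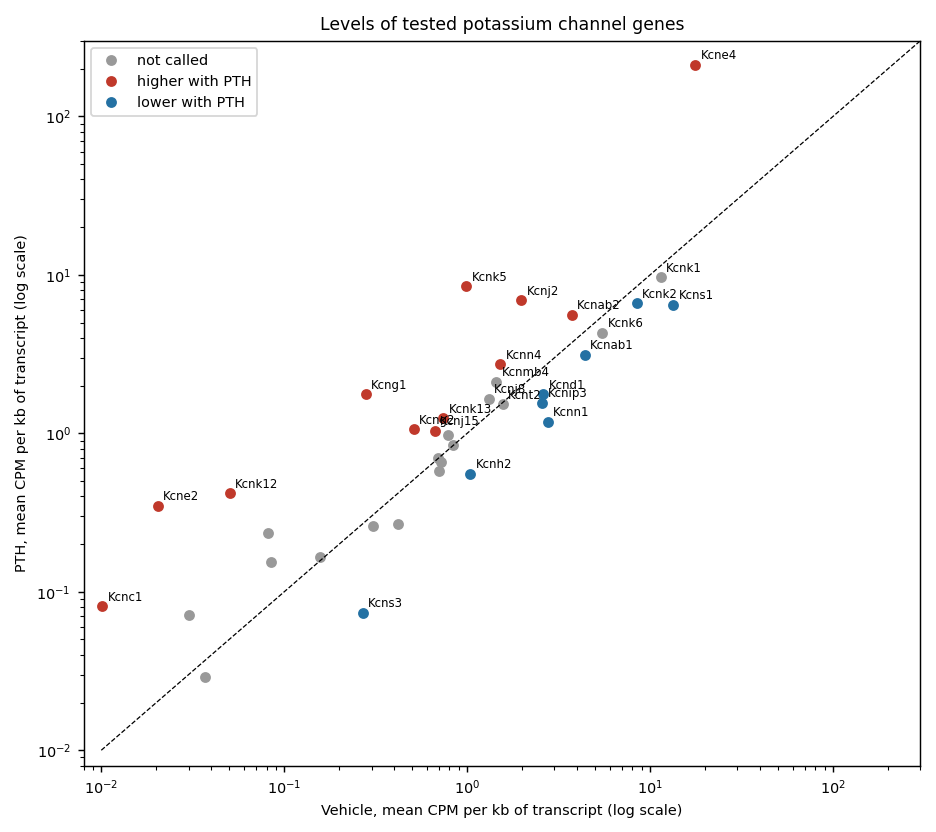
Mean CPM per kb with PTH against that with vehicle for the tested potassium channel genes named in the text, both axes logarithmic, coloured by whether the gene was higher, lower or not called, with a dashed line of equal level. Kcnk10, at 0 with vehicle, has no place on this scale, and Kcne4 (17.6 against 212) lies farthest up and to the right.

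**Figure D4:**
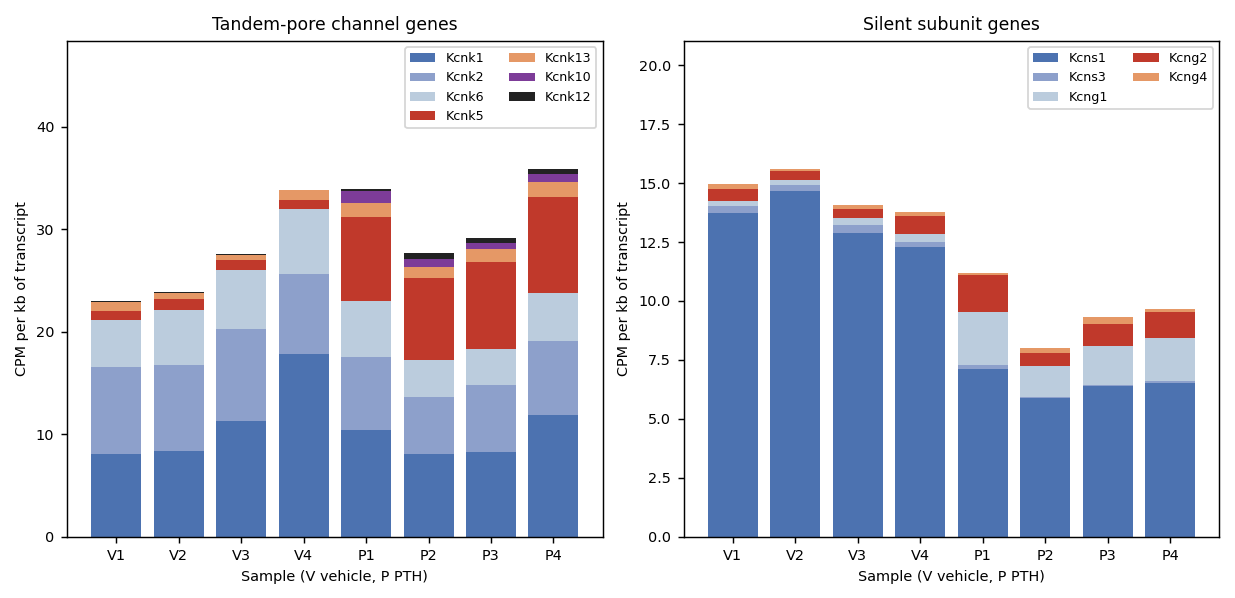
Stacked CPM per kb of transcript in each sample (V vehicle, P PTH) for the tandem-pore channel genes and for silent subunit genes, 1 bar per sample, with only selected members drawn. Kcnk5 went from a mean of 3.75% to 26.9% of the Kcnk class and Kcnk2 from 31.8% to 20.8%, and Kcns1 is the tallest segment of every bar in the other panel.

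The summed level of a class and its makeup did not always move together. The Kcnk sum was 23.3 to 34.1 CPM per kb with vehicle and 27.9 to 36.0 with PTH, with overlap. The calcium-activated sum was 8.07 to 8.91 and 8.16 to 9.28. For the voltage-gated subunits the sums were 22.2 to 25.0 and 16.8 to 19.4, and for the inward rectifiers 3.78 to 4.62 and 9.32 to 10.4, without overlap in either.

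Genes that work with potassium channels but bear other names were counted from a list of 43. Of these, 35 were tested, 11 were higher (31.4%, against 23.3% of all tested genes) and 6 lower (17.1%, against 22.5%) with PTH, with a median log2 fold change of 0.16. A minimum log2 fold change of 1 left 5 higher and 0 lower, where 7.36% and 3.88% of all tested genes passed that cut. With 35 genes tested, the absence of lower ones carries little weight. Among auxiliary proteins, the BK gamma subunit Lrrc38 was higher (log2 fold change 1.85, adjusted p = 0.00291 by edgeR), while the Kv4 partner Dpp6 (-0.64, adjusted p = 0.0408) and the Kv channel partner Amigo1 (-0.85, adjusted p = 5.50e-04) were lower. Sgk1, a kinase that keeps ion channels at the surface, went from 23.0 ± 0.865 CPM to 62.4 ± 4.57 CPM (1.44 on the log2 scale, adjusted p = 1.24e-08). Sodium pump subunits, which load the cell with potassium, were higher for Atp1b1 (0.50), Atp1b3 (0.35) and the regulator Fxyd5 (0.39). The cotransporter Slc12a2, which carries sodium, potassium and chloride inward, was higher (log2 fold change 1.14, adjusted p = 1.62e-06). Of the kinases that control such cotransporters, Wnk1 (0.68) and Wnk2 (1.11) were higher and Wnk3 (-0.67) was lower. The anchoring proteins Akap5 (1.82) and Akap9 (0.26) were higher. The intracellular channels Tmem175 of the lysosome (-0.21) and Tmem38b of the endoplasmic reticulum (-0.62) were lower.

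Several members are also expressed by other cells that a calvarial culture can hold, and in bulk RNA fewer cells of a type and less RNA per cell cannot be told apart. For the marker counts that follow, 23.3% of all tested genes were higher and 22.5% lower. The 9 macrophage markers summed to between 1010 and 1650 CPM with vehicle and between 1590 and 2050 CPM with PTH. Lyz2 alone (means of 914 and 1420 CPM) made up most of these sums. Of the 9, 2 were higher (Lyz2 and Tyrobp), beside the rises of Kcnn4, Kcnj2, Kcnj15 and Kcnk13. Of 7 neuronal markers, 4 were tested and 1 was higher (Tubb3), with sums of 9.62 to 13.2 and 22.9 to 33.7 CPM. Tubb3 alone (means of 9.73 and 27.4 CPM) made up most of these sums. Snap25, Syt1 and Syp were not called, and Rbfox3, Elavl3 and Elavl4 did not pass the filter. The 5 chondrocyte markers summed to 409 to 463 and 479 to 606 CPM, with 2 higher, and the 7 smooth muscle and pericyte markers to 2020 to 2430 and 1760 to 2270 CPM, with 1 higher and 2 lower. For 10 osteoblast markers the sums were 76500 to 87400 and 73100 to 106000 CPM with 3 lower (Runx2, Sp7 and Dmp1). Col1a1 (means of 44400 and 48200 CPM) and Col1a2 (35100 and 35300 CPM) made up most of these sums. Mean levels fell from 103 to 30.1 CPM for Sp7 and from 18.1 to 8.27 CPM for Dmp1. Of 7 adipocyte markers, 6 were tested and 1 was lower, with sums of 37.2 to 49.5 and 31.3 to 47.9 CPM. Markers of endothelium (6.15 to 6.97 and 5.66 to 6.97 CPM, with Emcn at 0), of skeletal muscle (6.21 to 9.60 and 6.08 to 9.29) and of Schwann cells and glia (24.0 to 27.8 and 21.8 to 28.6) had sums that overlapped between treatments, with 1 higher and 1 lower in each of the first pair and none called in the last. The part of these cells in the changes above was not tested.

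Of the members that changed, Kcnab1, Kcng2, Kcnj15, Kcnk2 and Kcnn1 have an exon under a gene on the opposite strand, and since the strand setting of the counts was not given, reads of the 2 strands cannot be told apart there. The partner genes listed in the table for 4 of these had means of at most 0.135 CPM in either treatment. Kcnab2 shares its locus with Gm16334, listed at 0. Of the members that changed, blastn found a stretch of at least 150 bases at 95% identity in another gene only for Kcnj15 and Kcnk2, in both with the overlapping antisense gene. The 4 antisense transcripts named after channels were low, and the 1 tested, Kcnmb4os2, was not called (log2 fold change 1.47, adjusted p = 0.149).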

How the data were processed

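Per the labels and the methods, poly(A) RNA of 4 PTH-treated and 4 vehicle-treated calvarial osteoblast samples was sequenced as paired reads. The authors aligned reads to GRCm38 (mm10) with HISAT2, assembled transcripts with StringTie and deposited 1 whole-number count per gene and sample, made from transcript coverage and not normalized. The companion script assumes a read length unless told otherwise, and the value, annotation version, strand setting and tool versions are not given in the sources used here. Total counts were 33605610 to 56090654 per sample. Of the rows, 2 had no symbol (at most 0.00526% of a sample's counts) and no member did.

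Counts were filtered with filterByExpr (minimum count 10, minimum total 15), normalized by TMM and tested with edgeR 4.0.16 (quasi-likelihood F-test, no covariate, Benjamini-Hochberg, adjusted p under 0.05) in R 4.3.3 over 16736 genes. The test steps were checked on simulated counts. The standard error is the absolute log2 fold change over the square root of F. CPM used TMM library sizes. Exact two-sided permutation tests on log2(CPM + 0.1), whose smallest p is 0.0286, were run beside them in Python with NumPy. Positions and transcript lengths came from GENCODE M21 on GRCm38, to which all 98 members were matched by symbol, and similar sequence was searched with blastn 2.17.0 (150 bases, 95% identity). Tables were handled with Python 3.11.15, pandas 2.3.3 and NumPy 2.4.6. Figures came from matplotlib 3.10.9. Alternatives were DESeq2 1.42.0, its size factors, no filter, a block for the sample number, omission of each sample in turn, halved counts, counts summed by symbol and a minimum log2 fold change of 1.

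Members, classes and lists were chosen with earlier results of these data known. Per-sample values are given for up to 3 members with the largest rise and fall of each class and for its most highly expressed member. Other tested members are named by fold change and adjusted p. The floor of 3 counts per library covers counting error only. The SDs and standard errors also hold the spread between samples. Some genes are counted but not reported here by name. No sample was left out, and the reads were not analysed here.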

Additional observations from a re-analysis of the deposited data

Results flagged for a closer look

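In a test of 98 groups of 4 samples for a sample far from the others by Dixon's criterion, 2 were found, where chance flags about 1 in 20. In Kcne2 the highest vehicle-treated sample, Vehicle 2, had 0.138 CPM and the others 0. In Kcnk12 the lowest vehicle-treated sample, Vehicle 4, had 0.0 CPM and the next 0.125.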

How the results depend on the processing

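The counts of 14 higher and 8 lower members were 16 and 9 with DESeq2, 14 and 8 with DESeq2's size factors, 14 and 9 without the filter, 13 and 8 with halved counts and 14 and 8 with counts summed by symbol. Leaving out 1 sample at a time gave 12 to 16 higher and 7 to 11 lower. A minimum log2 fold change of 1 left 9 and 3. With the sample number as a replicate block 14 rose and 8 fell, the same 22 genes. Samples of the same number did not deviate together over all tested genes (correlations of -0.0409 to 0.0274). That cannot show whether they shared a culture, which the labels do not state. Of the 22 members, 19 stayed past the threshold under every alternative that gave a value. The exceptions included Kcng2 (past it in 5 of the 8 fits that left out a sample, log2 fold change 0.80 to 1.33) and Kcnh2 (6 of 8, -1.13 to -0.62). Halved counts removed Kcne2 and Kcnk12 at the filter. DESeq2 added Kcng3, Kcnh1 and Kcnj12. No called member changed sign. Among the partner genes, the alternatives without a minimum fold gave 10 to 11 higher and 4 to 6 lower, with 11 and 4 under the replicate block. Kcnk1, not called at -0.23, ranged from -0.37 to 0.06 on leaving out 1 sample, and turned sign only without Vehicle replicate 4 (adjusted p = 0.783). The cause was not tested. Depth limits the members under about 0.23 CPM, the level the filter needs, and 3 counts, the floor per library, were 0.0585 to 0.0903 CPM.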
